A study of Homo sapiens with 6 samples.

Results

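The p53 arrest and stress targets described here are 35 protein-coding genes known to be induced by p53 during growth arrest and stress. They were picked by name, and a gene was kept when it had at least 10 counts in at least 3 of the 6 libraries. By this rule 33 of the 35 genes were kept, against 20127 of the 62754 genes in the count table, and all 33 were among the 19874 genes tested. SPATA18 and EDA2R were left out. SPATA18 had 1, 4 and 1 counts in the control libraries and 4, 3 and 4 counts after NAT10 knockdown, and EDA2R had 1 count in a single library.

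The RNA came from HK-2 cells, a human proximal tubule line, all of which received Cisplatin. One group was transfected with negative control siRNA (CP+siNC) and the other with siRNA against NAT10 (CP+siNAT10), and 3 stranded mRNA libraries were sequenced in each. The comparison asks how transcripts of Cisplatin-treated tubular cells differ when NAT10, an acetyltransferase of both RNA cytidine and proteins, is reduced. The labels of these libraries give neither dose nor time, though the study picked a fixed concentration and exposure for later work in these cells, and no cells without Cisplatin were analysed here. The count totals were 19321665, 21602988 and 19464027 in CP+siNC and 20793709, 21531774 and 25192736 in CP+siNAT10. Nothing says whether the replicates came from separate cultures, so the p-values measure only the spread between these libraries, which may be technical. In bulk RNA, fewer cells that express a gene and less RNA per cell cannot be told apart.

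Cisplatin crosslinks DNA, and the damage kinases ATM and ATR then stabilise p53 by releasing it from the ubiquitin ligase MDM2. p53 binds response elements near its target genes and raises transcription of the CDK inhibitor p21 (CDKN1A), of its own inhibitor MDM2, and of genes for repair, redox balance and cell death. In the kidney, this response is best known from the proximal tubule, which takes up Cisplatin. HK-2 cells were immortalised with oncogenes of a papillomavirus, one of which directs p53 to degradation through the ligase UBE3A, so the line is a limited model of the p53 response of a normal tubule.

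As a check of cell identity, 12 of 17 epithelial and proximal tubule markers passed the same rule as the members. Their summed level was between 2712 and 2804 CPM (counts scaled to the TMM-adjusted library size) in all 6 libraries, and KRT8, which made up most of the sum, did not pass the test between groups. Of the 12 tested markers 4 fell and 4 rose, where 22.3% of all tested genes fell and 21.8% rose. Examples were KRT18 at a log2 fold change of -0.36 and PAX8 at 0.59. Receptors and transporters of the differentiated proximal tubule were near or at 0. LRP2 had at most 1 count in any library, CUBN and SLC34A1 had at most 8, and SLC22A6 had 0 in all. The enzyme gene GGT1 of the same list was well above 0, at a mean of 33.2 CPM in CP+siNC and 27.4 CPM in CP+siNAT10. Immune markers summed to at most 2.55 CPM and endothelial markers to at most 0.509 CPM. Fibroblast markers summed to 21.5, 23.3 and 21.6 CPM in CP+siNC and to 23.7, 30.6 and 24.5 CPM in CP+siNAT10, with COL1A1 among the most abundant. COL1A1 rose at a log2 fold change of 0.38, and PTPRC, an immune marker with a mean below 1 CPM in both groups, at 0.96 (adjusted p = 0.0411). PTPRC had 8, 10 and 7 counts in CP+siNC and 10, 29 and 17 in CP+siNAT10, with the most in replicate 2. The other tested immune and fibroblast markers, CD14 at -0.03, LUM at 0.03 and COL3A1 at 0.71, did not pass. The part of these markers in the comparison was not tested.

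NAT10 itself was measured at 75.8, 71.4 and 73.2 CPM in CP+siNC and at 41.3, 40.5 and 42.4 CPM in CP+siNAT10. All 3 knockdown libraries were lower than all 3 controls, with 56.4% of the control level remaining. The log2 fold change was -0.82 (standard error 0.0426, adjusted p = 2.79e-15).

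Most p53 arrest and stress targets were lower after NAT10 knockdown. At an adjusted p under 0.05, 21 of the 33 members fell (63.6%), where 22.3% of all tested genes fell, and 4 rose (12.1%), where 21.8% of all tested genes rose. With scaling by library totals only, the members that rose were 7, and 5050 of 19874 tested genes rose, so the members and all genes then differed little in this direction. In the first fit the other 8 did not pass, and 44.1% of all tested genes passed in either direction. The median log2 fold change of the members was -0.27, beside 0.0070 over all tested genes, and the median size of the change was 0.36 beside 0.21. The values ran from -1.61 for CCNG1 to 0.82 for SUSD6. A log2 fold change under -1 together with the adjusted p was met by 1 member, CCNG1, and by 1.38% of all tested genes. No member met both limits upward (0 of 33 with edgeR, with DESeq2 and with limma-voom), where 0.951% of all tested genes did, while 4 members passed the adjusted p alone. The 3 control and the 3 knockdown libraries did not overlap for 21 members that were lower and for 8 that were higher, where 25.7% of all tested genes were lower in this way and a further 25.7% higher. Whether the members differ from other genes as a set was not tested.

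**Figure D1:**
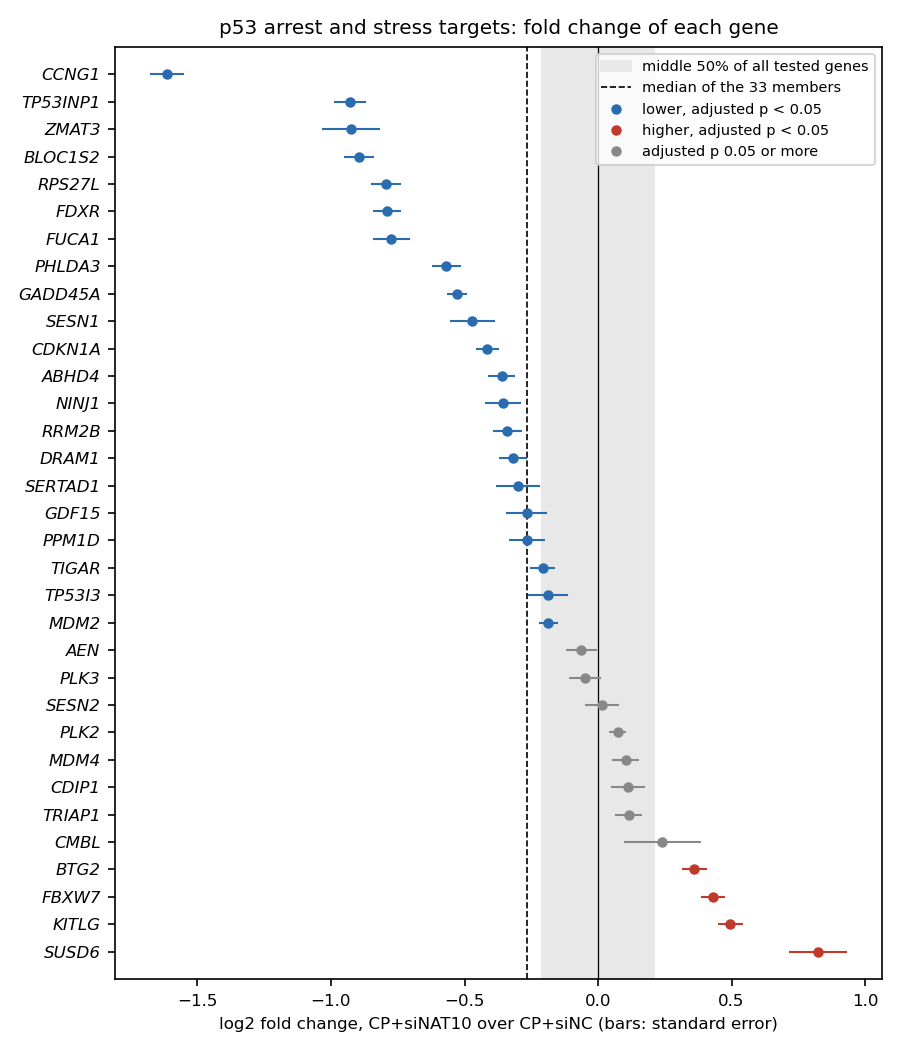
Log2 fold change of each of the 33 members, CP+siNAT10 over CP+siNC, with the standard error as a bar. Blue points fell and red points rose at an adjusted p under 0.05, grey points did not pass, the grey band holds the middle 50% of all tested genes, and the dashed line is the median of the members at -0.27.

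Levels can be set side by side between genes only per length. On that scale (RPKM, the CPM per kilobase of the listed gene length), GADD45A at 119 and PLK2 at 116 were the most abundant members in CP+siNC. CDKN1A at 23.2 and TRIAP1 at 22.3 RPKM followed, and MDM2 was at 10.9 RPKM. The least abundant were SUSD6 at 0.822 and CMBL at 0.627 RPKM. The member with the largest fall, CCNG1, was at 12.5 RPKM in the control.

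The sequence of MDM2 is shown first, because its internal promoter is the one known to respond to p53 in the feedback loop. Promoter windows from RefSeq (GRCh38.p14), reaching from 250 bases before to 50 bases after a start site, were found for 30 of the 35 listed genes and searched for the p53 consensus. A match was a pair of half-sites of 10 bases, each with C at position 4 and G at position 7, separated by 0 to 13 bases and with at most 2 mismatches in all. The motif is its own reverse complement, so both strands were covered. Such a match was found for 4 of 30 genes of the list (13.3%) and for 3.62% of all 27305 genes with a window. The shares depended on the limit: with at most 1 mismatch they were 0 of 30 and 0.505%, and with at most 3 mismatches 9 of 30 and 15.3%. The stretch printed is chr12:68808767-68809001 on the plus strand. It lies inside MDM2, ahead of an internal start site and outside the exons annotated in GENCODE 29, and capitals mark the match, which begins 94 bases before the start.
MDM2: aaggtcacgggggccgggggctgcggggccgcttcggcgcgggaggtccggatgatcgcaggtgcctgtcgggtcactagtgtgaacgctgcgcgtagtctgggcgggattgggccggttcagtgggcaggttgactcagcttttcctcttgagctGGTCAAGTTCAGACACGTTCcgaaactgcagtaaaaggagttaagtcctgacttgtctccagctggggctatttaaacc

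The other 3 matches lie close to the main start sites of their genes, and each overlaps an exon of some annotated transcript. Capitals are the half-sites and lower case the bases between them. The AEN match is at chr15:88621306-88621325 on the plus strand, the FDXR match at chr17:74872996-74873025 on the minus strand, and the ABHD4 match at chr14:22598274-22598303 on the plus strand.
AEN: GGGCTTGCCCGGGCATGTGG
FDXR: GGGCGGGCCCgggcaggagcGGGCTTGCCC
ABHD4: GGGCTCGCCAggacctggcaAGGCTTGTTT
Of the 4 genes with a match, MDM2, FDXR and ABHD4 fell and AEN did not pass, with log2 fold changes of -0.19, -0.79, -0.36 and -0.06. Beside this, 63.6% of the 33 members and 22.3% of all tested genes fell. Whether genes with a match differ from the other members was not tested. A match is a description of letters, and a window without one says nothing of elements farther away.

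Of the 4 members grouped under feedback on p53, 3 fell and 1 did not pass. Beside this, 22.3% of all tested genes fell and 21.8% rose. Each member was put in 1 role only, and CCNG1, which also acts on MDM2, is counted with the arrest and checkpoint genes. MDM2 (ENSG00000135679, chromosome 12, 68808177 to 68844195) was measured at 92.0, 90.8 and 87.7 CPM in CP+siNC and at 80.2, 79.3 and 78.4 CPM in CP+siNAT10. Every knockdown library was below every control, by a small step. The log2 fold change was -0.19 (standard error 0.0373, adjusted p = 1.55e-04). The gene of carboxypeptidase M overlaps MDM2 on the other strand, held 54.6% as many counts and did not pass (adjusted p = 0.347). ENSG00000257181, also on the other strand, held 12.0% and did not pass. ENSG00000256664, on the same strand as MDM2, held 8.56% and passed as lower (log2 fold change -0.24, adjusted p = 0.044). MDM4, the relative of MDM2 that masks the activation domain of p53, was at 30.6 ± 1.13 CPM in CP+siNC and 32.8 ± 0.621 CPM in CP+siNAT10 (mean ± SD of 3 libraries each). All 3 knockdown libraries of MDM4 lay above the controls, but it did not pass, and the log2 fold change was 0.10 (standard error 0.0501, adjusted p = 0.0956). With scaling by library totals only it passed as higher (adjusted p = 0.0253). PPM1D, the phosphatase WIP1 that removes damage-induced phosphates from p53 and ATM, fell by 0.27 on the log2 scale (standard error 0.0681).

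TP53INP1, a stress protein that promotes p53 phosphorylation and autophagy, gave the second lowest value among the members. Its levels were 49.8, 40.7 and 47.1 CPM in CP+siNC and 23.5, 24.4 and 24.1 CPM in CP+siNAT10. The knockdown libraries were close to each other and all below the lowest control, which was replicate 2. The log2 fold change was -0.93 (standard error 0.0599, adjusted p = 3.24e-13), and it went to -1.02 without that control library. TP53INP1 lies opposite NDUFAF6, which spans it on the other strand with 73.4% as many counts and did not pass (log2 fold change -0.06, adjusted p = 0.378). Whether counting used strand is not given in the sources used here, so reads of both genes may have been mixed, and the same holds for other overlapping pairs.

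Among the arrest and checkpoint genes, 4 of 8 fell and 2 rose, beside 22.3% and 21.8% of all tested genes, so the number that rose was near the background. The division of members by role was made after their values were seen. CCNG1 (ENSG00000113328, chromosome 5, 163437569 to 163446151) encodes cyclin G1, which recruits the phosphatase PP2A to MDM2. It was measured at 36.5, 41.9 and 38.01 CPM in CP+siNC and at 12.0, 13.4 and 12.7 CPM in CP+siNAT10. The groups were far apart, with 32.7% of the control level left. The log2 fold change was -1.61 (standard error 0.0631, adjusted p = 6.59e-18), which was lower than that of all but 0.131% of tested genes.

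CDKN1A (ENSG00000124762, chromosome 6, 36676460 to 36687337) encodes p21, which blocks cyclin-dependent kinases and holds cells in G1. Its levels of 71.6, 67.6 and 69.2 CPM in CP+siNC compared with 49.97, 51.7 and 54.4 CPM in CP+siNAT10. All control libraries were above all knockdown libraries, and 74.9% of the control level remained. The log2 fold change was -0.41 (standard error 0.0430, adjusted p = 4.79e-09). GADD45A, a growth arrest protein that binds PCNA and activates stress kinases, went from 228 ± 7.91 to 158 ± 9.11 CPM (mean ± SD of 3 libraries each), which is -0.53 on the log2 scale (standard error 0.0385). SERTAD1, a regulator of CDK4 and of E2F transcription, fell by 0.30 on the same scale.

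The antiproliferative cofactor BTG2 went the other way. It was measured at 37.4, 36.5 and 36.2 CPM in CP+siNC and at 47.9, 45.4 and 48.1 CPM in CP+siNAT10. All knockdown libraries were higher than all controls, and the log2 fold change was 0.36 (standard error 0.0461, adjusted p = 2.05e-07). FBXW7, the substrate receptor of a ubiquitin ligase for cyclin E and MYC, was at 42.9, 45.3 and 43.7 CPM in CP+siNC and at 56.5, 60.8 and 60.2 CPM in CP+siNAT10. It was again higher in every knockdown library, and the log2 fold change was 0.43 (standard error 0.0446, adjusted p = 4.79e-09). The polo-like kinases PLK2 and PLK3 did not pass, at 0.07 (standard error 0.0336, adjusted p = 0.0799) and -0.05 (standard error 0.0605, adjusted p = 0.543). PLK2 was at 537 ± 14.7 CPM in CP+siNC and 565 ± 15.6 CPM in CP+siNAT10 (mean ± SD of 3 libraries each), and its 3 knockdown libraries all lay above the controls. It passed as higher with scaling by library totals only (adjusted p = 0.00505). The same held with all genes of at least 1 count (0.0445) and with limma-voom (0.046).

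**Figure D2:**
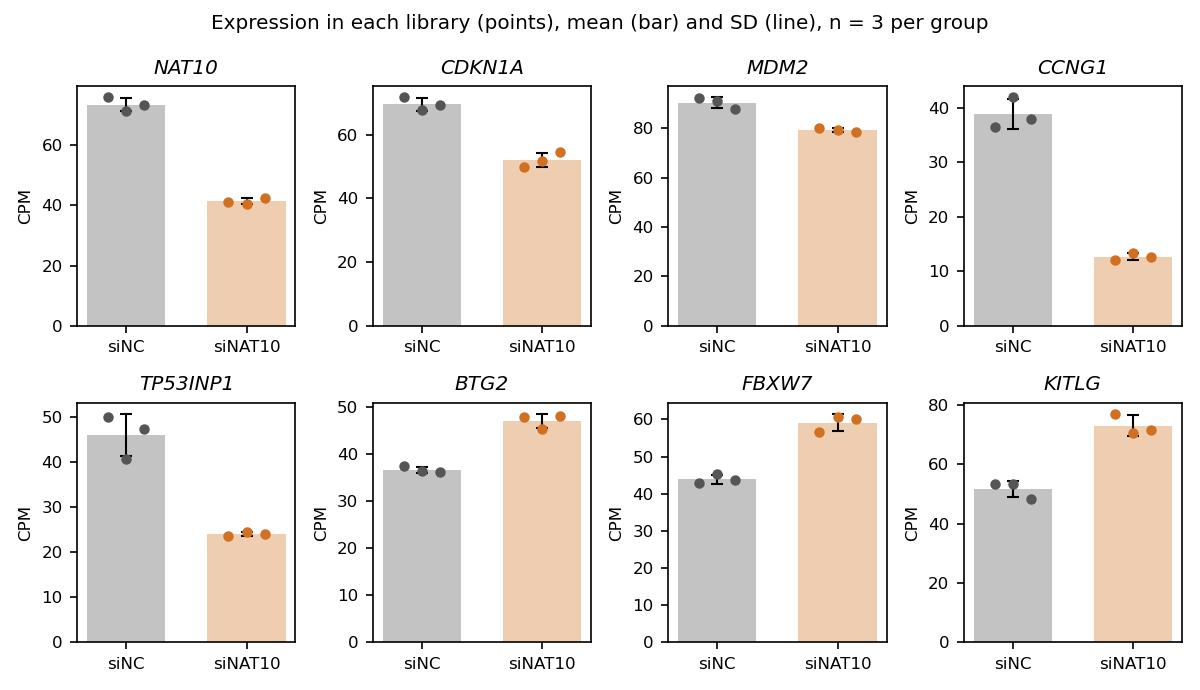
CPM in each library for NAT10 and 7 members, with points for libraries, bars for the group mean and lines for the SD (n = 3 per group); each vertical axis starts at 0. CDKN1A, MDM2, CCNG1 and TP53INP1 were lower, and BTG2, FBXW7 and KITLG higher, in every CP+siNAT10 library than in every CP+siNC library.

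Of the 6 members with roles in redox balance, metabolism and nucleotide supply, 5 fell and 1 did not pass, where 22.3% of all tested genes fell. FDXR, the reductase that passes electrons to mitochondrial ferredoxin, had the largest change of these, from 36.9 ± 0.994 to 21.4 ± 1.07 CPM (mean ± SD of 3 libraries each), which is -0.79 on the log2 scale (standard error 0.0534, adjusted p = 9.01e-13). The stress sensor SESN1, which restrains mTORC1, fell by 0.47, and RRM2B, the ribonucleotide reductase subunit used for DNA repair outside S phase, fell by 0.34. ENSG00000271730, on the other strand of SESN1, held 21.1% as many counts and was also lower (log2 fold change -0.70), so the value of SESN1 is uncertain. SESN2, of the same family as SESN1, was at 16.9 ± 0.461 CPM in CP+siNC and 17.1 ± 0.335 CPM in CP+siNAT10, and the log2 fold change was 0.01 (standard error 0.0641, adjusted p = 0.882). The difference between SESN1 and SESN2 was not tested. TIGAR, a bisphosphatase that limits glycolysis, fell by 0.21. A gene annotated on the same strand over the whole of TIGAR, ENSG00000285901, held 79.4% as many counts, so the value of TIGAR is uncertain. The quinone reductase gene TP53I3 passed narrowly, at -0.19 (standard error 0.0756, adjusted p = 0.0460). Leaving out CP+siNC replicate 1 or 3 or CP+siNAT10 replicate 2 or 3 ended this call, with adjusted p of 0.150, 0.0775, 0.211 and 0.103. It was also lost with DESeq2 (adjusted p = 0.162), with scaling by library totals only (0.116) and with all genes of at least 1 count (0.107). FAM228B overlaps TP53I3 on the other strand, held 36.2% as many counts and did not pass.

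The members that act on survival, death or RNA fell in 4 of 7 cases, and 3 did not pass, where 22.3% of all tested genes fell and 21.8% rose. ZMAT3, an RNA-binding protein that regulates splicing and transcript stability, was measured at 10.2, 10.8 and 10.9 CPM in CP+siNC and at 4.61, 5.26 and 6.79 CPM in CP+siNAT10. The knockdown libraries were all lower but spread more widely, with replicate 3 the highest. The log2 fold change was -0.92 (standard error 0.109, adjusted p = 4.79e-08), and it was -1.11 without that library. RPS27L, a paralog of a small-subunit ribosomal protein, was at 50.3, 51.1 and 48.5 CPM in CP+siNC and at 25.6, 29.6 and 31.0 CPM in CP+siNAT10. The groups were well apart, and the log2 fold change was -0.79 (standard error 0.0548, adjusted p = 1.44e-12). RPS27L lies opposite LACTB, which also fell (log2 fold change -0.53) and held 135% as many counts, so how much each contributed is uncertain.

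PHLDA3, an inhibitor of AKT at the membrane, fell by 0.57 on the log2 scale, and NINJ1, which ruptures the plasma membrane of dying cells, by 0.36. The other 3 did not pass. The exonuclease gene AEN was at -0.06 (standard error 0.0589), CDIP1 at 0.11 (standard error 0.0635), and the apoptosis inhibitor TRIAP1 at 0.11 (standard error 0.0508). TRIAP1 lies opposite ENSG00000111780, which held 266% as many counts and fell by 0.21, so its value is uncertain. TRIAP1 passed as higher with scaling by library totals only (adjusted p = 0.017) and without CP+siNC replicate 1 (0.0442).

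Lysosomal, membrane and hydrolase members fell in 4 of 6 cases and rose in 1, where 22.3% of all tested genes fell and 21.8% rose. BLOC1S2, a subunit of complexes that position and form lysosome-related organelles, was at 30.7, 31.3 and 32.0 CPM in CP+siNC and at 17.9, 16.6 and 16.2 CPM in CP+siNAT10. Controls and knockdown libraries each formed a narrow range, with a log2 fold change of -0.89 between them (standard error 0.0572, adjusted p = 2.81e-13). FUCA1, the lysosomal fucosidase, fell by 0.77, the lipase gene ABHD4 by 0.36, and DRAM1, a lysosomal membrane protein of autophagy, by 0.32. CMBL, a hydrolase gene with a mean of 3.06 CPM in CP+siNC, was at 0.24 (standard error 0.143) and did not pass. SUSD6, a sushi-domain membrane protein, gave the highest value of all members. It was measured at 5.42, 4.76 and 4.21 CPM in CP+siNC and at 7.93, 8.56 and 8.92 CPM in CP+siNAT10. The groups did not overlap, and the log2 fold change was 0.82 (standard error 0.108, adjusted p = 3.29e-07).

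Of the 2 secreted members 1 rose and 1 fell, where 21.8% of all tested genes rose and 22.3% fell. These are too few genes to speak of a direction for the role. KITLG, the ligand of the receptor KIT, was at 53.2, 53.3 and 48.3 CPM in CP+siNC and at 76.9, 70.4 and 71.3 CPM in CP+siNAT10. Every knockdown library was above every control, and the log2 fold change was 0.50 (standard error 0.0458, adjusted p = 5.19e-10). GDF15, a stress cytokine of the TGF-beta family, went from 18.1 ± 1.79 to 15.1 ± 1.34 CPM (mean ± SD of 3 libraries each), which is -0.27 on the log2 scale (standard error 0.0769, adjusted p = 0.00546). Without CP+siNC replicate 3 the adjusted p of GDF15 was 0.0521, and without CP+siNAT10 replicate 3 it was 0.0596.

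**Figure D3:**
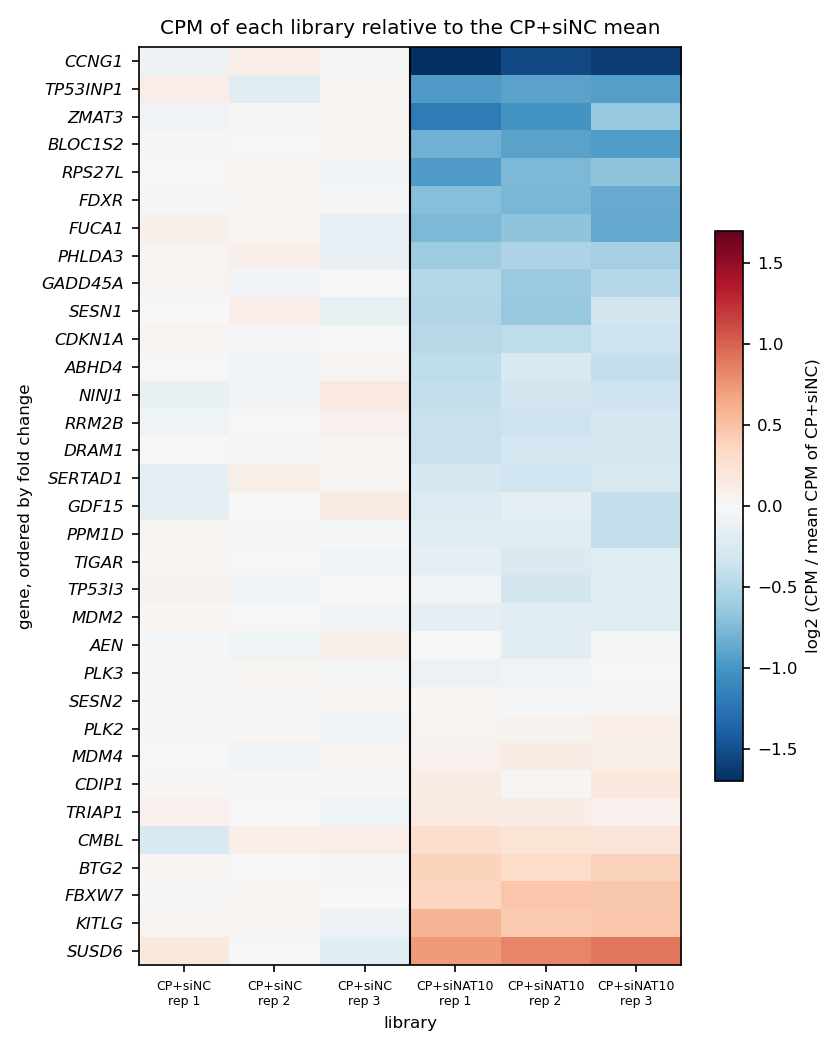
Level of the 33 members in each of the 6 libraries, as log2 of the CPM over the mean CPM of CP+siNC, with blue for lower and red for higher; genes are ordered by fold change. The 3 control columns stay near 0 while the 3 CP+siNAT10 columns run from blue for CCNG1 to red for SUSD6.

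Of the 16 tested regulators of p53, 8 rose and 3 fell, beside 21.8% and 22.3% of all tested genes, and the median log2 fold change was 0.09. The damage kinases ATM at 0.48 and PRKDC at 0.31, the p53-binding repair factor TP53BP1 at 0.35 and the ligase UBE3A at 0.36 had the 4 smallest p-values, and all rose.

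Other direct targets of p53 were mixed. Among targets of cell death, 6 of 12 tested genes fell and 4 rose, beside 22.3% and 21.8% of all tested genes, with a median of -0.14. The number that rose was 2 without CP+siNC replicate 2 and with DESeq2, and the number that fell was 4 without CP+siNAT10 replicate 3 and with scaling by library totals only. The death receptor gene FAS was at 16.0, 13.7 and 15.4 CPM in CP+siNC and at 5.08, 5.49 and 5.96 CPM in CP+siNAT10. The knockdown libraries held far less in every case, and the log2 fold change was -1.44 (standard error 0.0923, adjusted p = 2.94e-13). PMAIP1 (NOXA) fell by 0.42 and BAX by 0.38, whereas PERP, a membrane protein of desmosomes, rose by 0.39. Among targets of DNA repair, 4 of 6 fell and 2 did not pass, where 22.3% of all tested genes fell, with a median of -0.18. A single gene of this list rose with scaling by library totals only and with a replicate block. The same held when either CP+siNC replicate 3 or the first CP+siNAT10 library was left out. The 4 that fell were PCNA at -0.28, DDB2 at -0.36, POLH at -0.23 and XPC at -0.12.

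**Figure D4:**
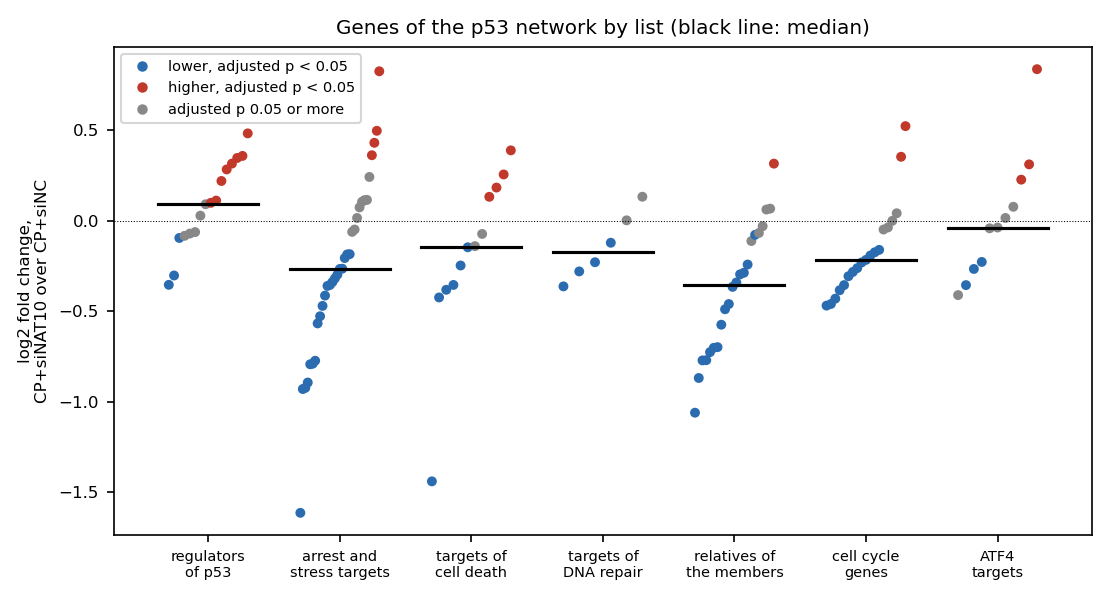
Log2 fold change of each tested gene, CP+siNAT10 over CP+siNC, in the members and in 6 lists of the p53 network, with the median of each list as a black line. Blue points fell, red points rose and grey points did not pass; the medians lay at 0.09 for the regulators of p53, -0.27 for the members and -0.35 for the relatives of the members.

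Relatives of the members share a gene family with them but were not chosen as p53 targets. Of 22 tested, 16 fell and 1 rose, where 22.3% of all tested genes fell and 21.8% rose, and the median log2 fold change was -0.35. The count that rose was 2 without CP+siNC replicate 3 and with scaling by library totals only. RRM2, the S phase counterpart of RRM2B, fell by 0.73, FUCA2 by 0.77, the cyclin gene CCNG2 by 0.70 and SERTAD2 by 0.58. SERTAD4 was the only relative past both limits, at -1.06, and CDKN1B, which encodes the CDK inhibitor p27, was the only one that rose, at 0.31. These 2 were chosen after their values were seen. The members and their relatives were not tested against each other.

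p21 is known to repress cell cycle genes through RB and the DREAM complex. Of 19 such genes tested, 13 fell and 2 rose, beside 22.3% and 21.8% of all tested genes, with a median of -0.22. CCNB1 fell by 0.43, CDK1 by 0.46 and FOXM1 by 0.47, and MYBL2 rose by 0.35. The list of ATF4, a stress factor that shares SESN2 and GDF15 with p53, holds ATF4 itself and its targets, and 3 of 11 fell and 3 rose, close to the 22.3% and 21.8% of all tested genes, with a median of -0.04. The number that fell was 1 without CP+siNC replicate 3 or without CP+siNAT10 replicate 3, and the median was 0.03 without CP+siNAT10 replicate 2, so no direction of the list is given. ATF4, counted among the 3 that fell, was lower by 0.36, and SLC7A11, DDIT3 and DDIT4 rose by 0.84, 0.31 and 0.23. The share of counts from ribosomal protein genes also moved with the groups, from 3.78% to 3.85% in CP+siNC and from 3.33% to 3.40% in CP+siNAT10, and its part in these results was not tested.

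Some members hold words in the 3′ UTR that were met before in these data. The heptamers GACTATC or ACTATCA or CATATTC came out of an earlier search of these same libraries for 3′ UTR words of falling genes, so their link with lower values is a description and no independent evidence. In the longest 3′ UTR annotated in GENCODE 29, on the transcript strand, 10 of 33 members (30.3%) held at least 1 of them, against 17.5% of 12964 tested genes. ACTATCA and GACTATC overlap each other by 6 bases. CCNG1, TP53INP1, ZMAT3, BLOC1S2 and RPS27L held CATATTC, and the other carriers of any heptamer were ABHD4, RRM2B, MDM2, MDM4 and KITLG. Sites are shown for members at the bottom of the range and for KITLG, the carrier that rose, with the heptamer in capitals. The site of TP53INP1, which also lies at the bottom of the range, is not printed. They lie at chr5:163444017-163444041, chr5:163444024-163444048 and chr5:163444291-163444315 (plus strand) in CCNG1, at chr3:179021764-179021788 (minus strand) for the most upstream of 4 in ZMAT3, at chr10:100275205-100275229 (minus strand) in BLOC1S2, at chr15:63149722-63149746 (minus strand) in RPS27L and at chr12:88497115-88497139 (minus strand) in KITLG, all within 3′ UTR exons on GRCh38.
CCNG1 first site: cacactaatACTATCAactatcagt
CCNG1 second site: atactatcaACTATCAgtcttccca
CCNG1 last site: aaagtttggCATATTCattaagtta
ZMAT3: acaatttctCATATTCatgtattcc
BLOC1S2: atgctttgcCATATTCaggacagag
RPS27L: gtaaggtaaCATATTCgtaggttct
KITLG: aaacaaattCATATTCtgtctggag

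Of the 10 carriers, 8 fell and 1, KITLG, rose, with a median log2 fold change of -0.58. The heptamers differed: GACTATC was in no member, the 3 members with ACTATCA had a median of -0.19 against -0.28 for those without it, and the 8 with CATATTC had -0.84 against -0.19, and CCNG1 held both. Over the 12964 tested genes the order was another, with medians of carriers of -0.15 for GACTATC, -0.10 for ACTATCA and -0.08 for CATATTC. Of the 23 members without a heptamer, 13 fell (56.5%) and 3 rose, with a median of -0.21. Over all tested genes with a 3′ UTR, 40.5% of carriers and 23.2% of the others fell. In the first fit the 5 lowest members, CCNG1, TP53INP1, ZMAT3, BLOC1S2 and RPS27L, were all carriers. FDXR and FUCA1 came next, at -0.79 and -0.77, and held none. Without CP+siNAT10 replicate 1, FDXR (-0.82) lay below the carrier RPS27L (-0.72). Carriers also had longer 3′ UTRs, with a median of 4600 bases against 1244 bases for the rest. The matches of MDM2 and ABHD4 lie outside the gene ends in the count table, which leaves 8 carriers with a match inside them. No siRNA sequence was used here, so whether the heptamers match the seed of the NAT10 siRNA was not tested.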

How the data were processed

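The authors prepared stranded mRNA libraries from Cisplatin-treated HK-2 cells and, per the labels, used Trimmomatic 0.36, STAR 2.5.3a, featureCounts (Subread 1.5.1), edgeR 3.12.1 and GRCh38. The deposited values are raw counts per gene for 6 libraries. First-strand primers carried molecular identifiers, meant by the kit for removing duplicate reads. Whether the deposited counts were made after such a step, and whether counting used strand, is not given in the sources used here. Of the tested genes 95.3% were found in GENCODE 29, and 99.9% of these overlapped the listed position.

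Counts were analysed with R 4.3.3, edgeR 4.0.16 (filterByExpr with a minimum count of 10 and a minimum total of 15, TMM, two-sided quasi-likelihood test without a replicate term) and limma 3.58.1. Benjamini-Hochberg adjustment covered all 19874 tested genes, and the limits were 0.05 for the adjusted p and 1 for the size of the log2 fold change. Standard errors came from the fold change and the F statistic. RPKM used the listed gene lengths. With 3 libraries against 3 an exact permutation test cannot go below p = 0.10. Programs were tested on simulated data. Chi-square per gene between replicates was 1.74 to 2.55, above the counting noise. Promoters and 3′ UTRs were searched in Python 3.11.15 with pandas 2.3.3 and numpy 2.4.6, and plots were drawn with matplotlib 3.10.9.

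Values in every library are given for CDKN1A and MDM2, members past both limits, and the 5 lowest and 5 highest members with an adjusted p under 0.05 and a mean of at least 5 CPM. Of each list, up to 4 genes with the smallest p are named, plus FAS, BAX and the relatives SERTAD4 and CDKN1B, and an item that the rule also covers is not reported here. The members and lists were chosen with earlier results of these data known. Alternatives were RLE, upper quartile and library total scaling, looser filters on counts, a replicate block, each library left out in turn, DESeq2 1.42.0, limma-voom and glmTreat.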

Additional observations from a re-analysis of the deposited data

How the results depend on the processing

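The direction and call of the members held in most settings. Over 14 alternatives for each of the 33 members, 446 fold changes kept their direction and their side of the limit, 9 no longer passed (GDF15 and TP53I3), 6 newly passed (PLK2, MDM4 and TRIAP1) and 1 changed sign. The last was SESN2, whose log2 fold change ran from -0.0017 to 0.033 when each library was left out, with the lowest value without CP+siNC replicate 2. Scaling by library totals only gave 7 members higher in place of 4, and a median of -0.23. The median ran from -0.33 to -0.21 when each library was left out, and the members past both limits downward from 1 to 2, with TP53INP1 added without CP+siNC replicate 2 and ZMAT3 without CP+siNAT10 replicate 3. These shifts follow from the changed scaling or samples, and their cause was not tested further.

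Libraries that share a replicate number did not deviate together (correlations across genes of -0.03, 0.03 and -0.17). With the replicate block, 21 members were lower and 4 higher, where 4318 and 4208 of the 19874 tested genes were. The median of the members was then -0.27, and 1 target of DNA repair was higher in place of 0. CMBL, at a mean of 3.06 CPM in CP+siNC, had the largest standard error of the members, 0.143, and did not pass. SUSD6, at 4.80 CPM in CP+siNC, passed. Whether depth limited the calls of low members was not tested.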
